A study of Mus musculus with 6 samples.

Results

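Hypoxia-inducible factor and its non-glycolytic targets were read from RNA sequencing of mouse embryonic fibroblasts, connective tissue cells cultured from a minced embryo. The 10 genes were taken by symbol from the count table, which lists 50763 genes: Hif1a itself, the oxygen sensors Egln1 and Egln3, the secreted factors Vegfa and Adm, and Car9, Pdk1, Bnip3, Ndrg1 and Ankrd37. All 10 were found, and all 10 passed the filter on low counts that 16730 genes passed. The tested cells carried K68R, a CRISPR knock-in that replaces a lysine of SOD2, the manganese superoxide dismutase of mitochondria, with arginine, a residue that cannot be acetylated. They were set against wild type (WT) cells, with 3 libraries per genotype. Both genotypes were on a C57BL/6 background, both were taken at E13.5, in midgestation, and both were cultured only briefly. The labels call the libraries biological replicates and do not say whether each came from its own embryo or culture, so p-values measure only the spread between these libraries, which may be technical. The labels give no oxygen level, and the assay measured no protein.

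Hypoxia-inducible factor is a dimer of an oxygen-sensitive alpha subunit, chiefly HIF1A or EPAS1 (HIF-2 alpha), and the constant beta subunit ARNT. With oxygen present, the prolyl hydroxylases encoded by the Egln genes mark the alpha subunit, the VHL ubiquitin ligase binds the mark, and the subunit is degraded. When hydroxylation stops, the dimer binds the core sequence ACGTG or GCGTG in the regulatory regions of its targets and raises transcription. Because that control acts on protein, Hif1a messenger RNA does not by itself report HIF activity, and HIF activity is usually read from target genes. Egln3 and, less steeply, Egln1 are such targets and feed back on the factor.

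The libraries held between 26200088 and 31738219 counts of read pairs in K68R and between 30856781 and 40691447 in WT. Levels are CPM, the count as a rate over the TMM-scaled library size, and CPM per kilobase of exon where genes are compared with each other. Sod2, the targeted gene, was expressed in every library, at 47.2 ± 1.62 CPM in K68R, against 69.96 ± 1.58 CPM in WT (SD, n = 3), and counts do not show the knock-in codon. Of the genes tested, 81.4% were called different (quasi-likelihood test of edgeR, Benjamini-Hochberg adjusted p under 0.05), 40.8% higher and 40.5% lower in K68R, so that a call alone sets no gene apart. Fold changes also moved with transcript composition: the median log2 fold change of K68R over WT was -0.31 over 3059 genes of 40% to 45% GC and 0.67 over 2810 genes of 55% to 60% GC. Each fold change is therefore given a second time from a fit with offsets that remove, in each library, a smooth surface over exon length and GC content. The surface was fitted to these same libraries and held 41.6% of the variance of the log2 fold changes. Its source was not tested, so the offsets may also remove differences that belong to the genotypes. In the fit with offsets 75.8% of genes were called, 33.5% higher and 42.4% lower.

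As a group the 10 genes split. In K68R, Egln1, Egln3, Adm, Car9 and Vegfa rose, Hif1a, Ndrg1 and Ankrd37 fell, and Pdk1 and Bnip3 were not called. That makes 8 of 10 called, which is close to the 81.4% of all genes tested. In the same 8 genes the libraries of the genotypes were fully separated, as they were in 82.3% of all genes tested. The median log2 fold change of the 10 genes was 0.05, beside -0.01 over all genes tested. With upper quartile scaling, which lowered the median of all genes to -0.12, the split was 4 higher and 5 lower. Of all 16730 genes tested, 6147 were higher and 7582 lower with that scaling. With the length and GC offsets the 10 genes split into 5 higher, 2 lower and 3 that were not called; their median was 0.18, beside -0.07 over all genes. The direction and the call were the same with and without offsets for 5 genes: Egln1, Egln3, Adm and Car9 higher, and Ndrg1 lower. Egln1, Egln3, Adm and Car9 were also the 4 whose change passed a test against a 1.5-fold bound, which 41.0% of all genes passed, 26.1% upwards and 14.9% downwards (edgeR). A called change of at least 2-fold was seen in 3 of the 10, Egln1, Egln3 and Car9, and in 29.7% of all genes tested.

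**Figure D1:**
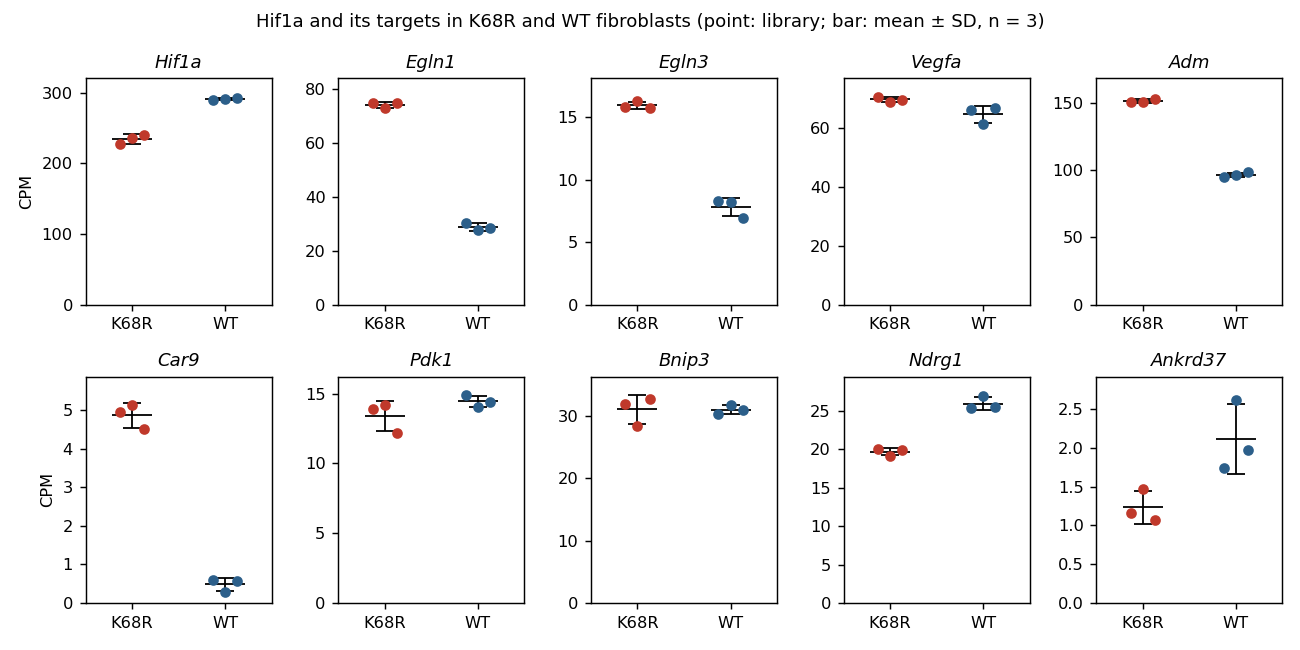
CPM of the 10 genes in each of the 3 K68R and 3 WT libraries (points), with the mean and SD of each genotype. Egln1, Egln3, Adm and Car9 lie higher in K68R with a clear gap, Hif1a and Ndrg1 lie lower, and the values of Pdk1 and Bnip3 overlap.

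**Figure D2:**
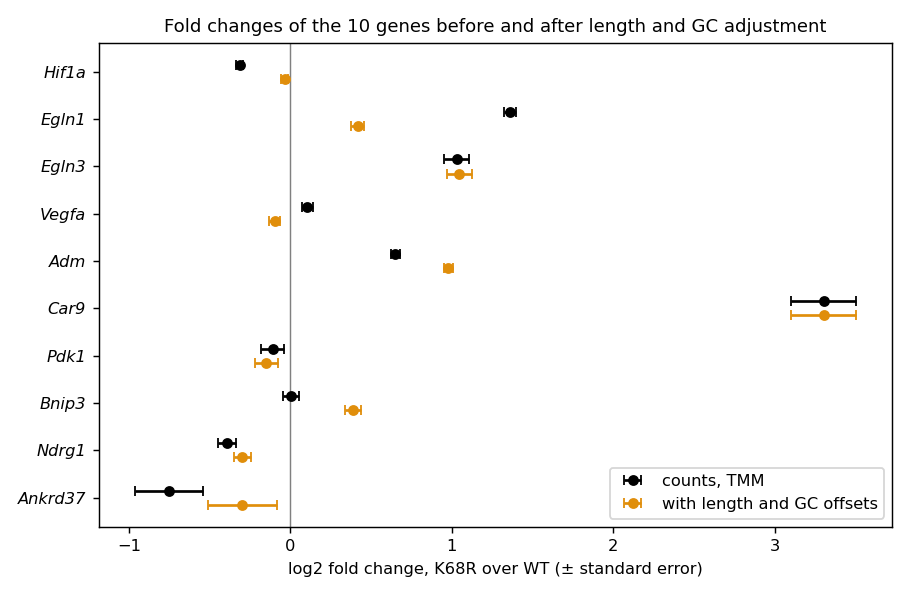
Log2 fold change of K68R over WT with its standard error for each of the 10 genes, from TMM-scaled counts (black) and with length and GC offsets (orange). Car9 and Egln3 keep their values of 3.30 and about 1.03, Egln1 goes from 1.36 to 0.42, and Hif1a from -0.31 to -0.04.

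Hif1a (chromosome 12, 73948186 to 73994304, plus strand, build mm39, 16 exonic blocks) encodes the oxygen-sensitive subunit. It was at 227, 235 and 240.3 CPM in the K68R libraries, against 289, 291 and 293 CPM in the WT libraries. Every K68R library lay below every WT library. The level fell 1.24-fold, or -0.31 on the log2 scale (standard error 0.0220, adjusted p = 3.43e-21, edgeR). With length and GC offsets the log2 fold change was -0.04, with an adjusted p = 0.130 (edgeR), so the call was lost. Its transcript has a GC content of 41.3%, and the surface at its length and GC content was itself -0.26 (log2, K68R minus WT).

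The other HIF subunits were read beside it. Epas1, the alpha subunit best known from endothelium, was at 14.8, 12.9 and 14.9 CPM in K68R and at 10.5, 9.31 and 9.76 CPM in WT, with no overlap. Its log2 fold change was 0.52 (adjusted p = 7.13e-09) and turned to -0.29 with offsets (adjusted p = 7.50e-04; edgeR), so its direction depends on that adjustment. Arnt, the shared beta subunit, was at 66.6 ± 1.10 CPM in K68R, against 66.7 ± 2.24 CPM in WT (SD, n = 3) and was not called (adjusted p = 0.978, edgeR). Arnt2, a beta subunit best known from neurons, rose 3.61-fold, and 1.88-fold with offsets. Hif3a had 10 counts over the K68R libraries and 11 over the WT libraries and was not tested. Per kilobase of exon, Hif1a made up 94.6%, 95.4% and 94.9% of the alpha subunit messages in K68R and 97.0%, 97.3% and 97.2% in WT. The groups did not overlap, and p was 0.1 by a two-sided exact permutation test, which with 3 libraries a side cannot go lower. Shares of a family were taken without offsets, here and for the families that follow, so this one rests on the rise of Epas1, which turned with offsets, and its direction is not settled.

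Egln1 and Egln3 encode prolyl hydroxylases that oppose HIF alpha, and both rose in K68R. Egln1 (chromosome 8, 125635325 to 125676063, minus strand, mm39, 5 exonic blocks), the main oxygen sensor of most cells, was at 74.8, 72.9 and 74.9 CPM in K68R against 30.3, 27.8 and 28.3 CPM in WT. The K68R values lay close together and far above the WT values. The rise was 2.57-fold (log2 fold change 1.36, standard error 0.0393, adjusted p = 1.37e-42, edgeR). Its transcript holds 56.0% GC, where the surface was 0.96, and with offsets the rise was 1.33-fold (log2 0.42, adjusted p = 8.70e-14, edgeR).

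Egln3 (chromosome 12, 54225767 to 54250660, minus strand, mm39, 5 exonic blocks), a hydroxylase strongly induced by HIF in many cells, was at 15.8, 16.3 and 15.8 CPM in K68R against 8.25, 8.19 and 6.95 CPM in WT. All K68R libraries were high and all WT libraries low. It rose 2.04-fold (log2 fold change 1.03, standard error 0.0777, adjusted p = 1.19e-19), and 2.06-fold with offsets (adjusted p = 3.56e-18; edgeR), since the surface was 0 to 2 decimals at its length and GC content. Egln2, the hydroxylase that HIF does not induce, was at 65.8 ± 1.65 CPM in K68R, against 37.6 ± 1.10 CPM in WT (SD, n = 3). On the log2 scale it changed by 0.80, and by -0.81 with offsets, at a GC content of 62.2%.

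The makeup of the hydroxylase family was compared within each library, per kilobase of exon. Egln1 held 40.25%, 40.4% and 41.1% of the 3 messages in K68R and 32.6%, 31.8% and 32.4% in WT. Egln2 held 49.2 ± 0.553% in K68R and 57.55 ± 0.632% in WT, while Egln3 held 10.2 ± 0.316% in K68R and 10.2 ± 0.815% in WT (SD, n = 3). The two-sided exact permutation p was 0.1, the smallest possible, for Egln1 and for Egln2, and 1 for Egln3. These shares rest on the rise of Egln2, which turned with offsets, so neither their directions nor the equal share of Egln3 is settled.

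Vegfa and Adm encode secreted factors that act on vessels. Vegfa (chromosome 17, 46327919 to 46343303, minus strand, mm39, 8 exonic blocks), the growth factor of endothelial cells, was at 70.6, 68.8 and 69.4 CPM in K68R and at 66.0, 61.3 and 66.6 CPM in WT. The genotypes did not overlap, yet the lowest K68R and the highest WT value were close. The log2 fold change was 0.10 (standard error 0.0347, adjusted p = 0.00487) and became -0.10 with offsets (adjusted p = 0.0117; edgeR). Without the lowest WT library, replicate 2, it was 0.05 with an adjusted p = 0.215 (edgeR). The direction of Vegfa therefore depends on the adjustment and its call on 1 library.

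Adm (chromosome 7, 110226864 to 110229027, plus strand, mm39, 4 exonic blocks) encodes adrenomedullin, a peptide that widens vessels and supports lymphatic development. It was at 150.47, 150.35 and 152.75 CPM in K68R against 94.99, 96.1 and 98.2 CPM in WT. All K68R libraries were above all WT libraries, with little spread within a genotype. The rise was 1.57-fold (log2 fold change 0.65, standard error 0.0267, adjusted p = 1.28e-33), and 1.97-fold with offsets (adjusted p = 2.36e-36; edgeR). On the opposite strand the predicted gene Gm28863 shares 20.4% of the exonic bases of Adm, and the counting used no strand. That gene was itself at 1.62 ± 0.197 CPM in K68R, against 0.672 ± 0.262 CPM in WT (SD, n = 3), far below Adm.

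Receptors for both factors were looked up after the values of the ligands had been seen. Of the VEGF receptors and coreceptors, Kdr, the main signalling receptor, was at 90.7 ± 1.20 CPM in K68R, against 20.4 ± 1.24 CPM in WT, and Flt1, which also acts as a decoy, at 56.2 ± 1.82 CPM in K68R, against 89.9 ± 2.58 CPM in WT (SD, n = 3). Kdr rose 4.46-fold and 3.04-fold with offsets, while Flt1 fell 1.60-fold and 3.46-fold with offsets. The coreceptors Nrp1 and Nrp2 rose 1.34-fold and 2.61-fold, and 1.47-fold and 1.41-fold with offsets (edgeR, all called with and without offsets). Calcrl, the receptor for adrenomedullin, fell 2.18-fold in K68R, and its partners Ramp2 and Ramp3, which give it that specificity, fell 4.32-fold and 5.20-fold. With offsets these were 1.79-fold, 3.24-fold and 4.42-fold lower. Ramp1, which pairs with Calcrl as a receptor for the related peptide CGRP, fell 2.25-fold, and 4.31-fold with offsets. Adm was thus higher while Calcrl, Ramp1, Ramp2 and Ramp3 were lower, as were 40.5% of all genes tested. The genotypes did not overlap in any of them, nor in 82.3% of all genes tested. Adm2, a related ligand of the same receptors, was also lower, with 3 counts over the K68R libraries and 38 over the WT libraries, a ratio of 0.0953 that counting error puts between 0.0188 and 0.300 (exact binomial, 95%). Ramp2 rested on 74 counts over the K68R libraries. Kdr is also an endothelial marker. Of the other endothelial markers, Emcn rose 2.33-fold, and 2.95-fold with offsets, to 2.19 ± 0.0900 CPM in K68R, against 0.939 ± 0.119 CPM in WT (SD, n = 3), Tek, Pecam1 and Cdh5 were not called, and Tie1 was not tested. Pecam1 and Cdh5 were at or below 1.15 CPM in every library. The part of endothelial cells in the change of Kdr was not tested. In bulk RNA, fewer cells of a type and less RNA per cell cannot be told apart.

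**Figure D3:**
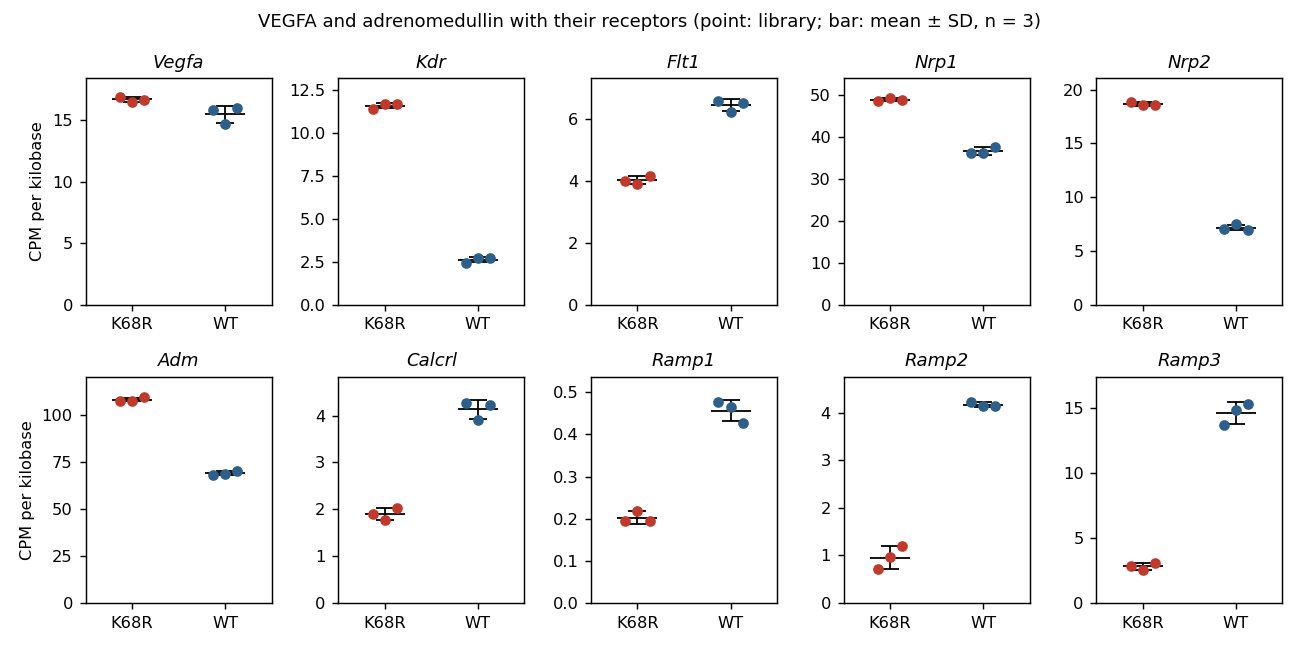
CPM per kilobase of exon in each of the 3 K68R and 3 WT libraries for Vegfa with its receptors (upper row) and Adm with the parts of its receptor (lower row), with mean and SD. Kdr is higher and Flt1 lower in K68R, and Adm is higher while Calcrl, Ramp1, Ramp2 and Ramp3 are all lower.

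Vegfa was also set beside its relatives per kilobase of exon. It made up 20.8 ± 0.208% of the summed messages of Vegfa, Vegfb, Vegfc, Vegfd and Pgf in K68R and 22.6 ± 1.21% in WT (SD, n = 3; exact permutation p = 0.1, two-sided). Vegfb, the member tied to lipid uptake, rose 1.64-fold, and 1.07-fold with offsets. The lymphatic growth factor Vegfd fell 1.57-fold, and 1.21-fold with offsets.

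Car9 had the largest change among the 10 genes. It encodes carbonic anhydrase 9, an enzyme of the outer cell surface that disposes of acid and is among the most selective markers of HIF1A activity in tumours. The gene (chromosome 4, 43507026 to 43513729, plus strand, mm39, 12 exonic blocks) had 128, 160 and 139 counts in the K68R libraries against 24, 9 and 19 counts in the WT libraries. That is 4.96, 5.13 and 4.505 CPM in K68R and 0.582, 0.288 and 0.567 CPM in WT, so it was low in both and near the floor in WT, where 3 counts correspond to 0.0728 to 0.0959 CPM. The rise was 9.87-fold with and without offsets (log2 fold change 3.30, standard error 0.201, adjusted p = 3.13e-24, edgeR). The ratio of summed counts was 9.91, and counting error alone puts it between 7.42 and 13.48 (exact binomial, 95%). Leaving out any 1 library gave log2 fold changes from 3.05 to 3.47.

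Car9 lies between other genes, and 7.13% of its exonic bases are shared with Arhgef39 and Tpm2 on the opposite strand. Tpm2, an actin-binding tropomyosin, was far more abundant, at 712 ± 17.2 CPM in K68R, against 583 ± 17.2 CPM in WT (SD, n = 3), a 1.22-fold rise that turned to a 1.32-fold fall with offsets. Arhgef39 fell 1.41-fold, and 1.45-fold with offsets. Reads from the shared bases cannot be assigned to a strand in these counts. Car12, another HIF-responsive surface carbonic anhydrase, is named as a relative of Car9, outside the rule for naming genes given below. It was at 7.31 ± 0.317 CPM in K68R, against 3.75 ± 0.726 CPM in WT (SD, n = 3), a rise of 1.95-fold and of 1.66-fold with offsets (edgeR).

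Pdk1 and Bnip3 act on mitochondria, and neither was called. Pdk1 (chromosome 2, 71703398 to 71734202, plus strand, mm39, 14 exonic blocks) encodes a kinase that inactivates pyruvate dehydrogenase and so limits entry of pyruvate into the TCA cycle. It was at 13.9, 14.2 and 12.2 CPM in K68R and at 14.9, 14.0 and 14.4 CPM in WT, with overlapping values. The log2 fold change was -0.11 (standard error 0.0707, adjusted p = 0.146), and -0.15 with offsets (adjusted p = 0.0527; edgeR). With upper quartile scaling it was called, at -0.22 (adjusted p = 0.00313, edgeR). Of its family, Pdk4, known from fasting and PPAR control, rose 2.27-fold, and 2.74-fold with offsets. Pdk1 made up 15.95 ± 1.06% of the messages of the 4 kinases per kilobase in K68R and 21.2 ± 0.712% in WT (SD, n = 3; two-sided exact permutation p = 0.1).

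Bnip3 (chromosome 7, 138492565 to 138511235, minus strand, mm39, 6 exonic blocks) encodes a mitophagy receptor of the outer mitochondrial membrane. Its level was 32.0, 28.5 and 32.8 CPM in K68R and 30.3, 31.8 and 30.9 CPM in WT. The WT values all lay inside the K68R range. The log2 fold change was 0 to 2 decimals (standard error 0.0492, adjusted p = 0.947), but with offsets it was 0.39 with an adjusted p = 7.68e-10 (edgeR), as the surface at 41.6% GC was -0.37. In a fit restricted to genes with both an exon length below 4000 bases and a GC content below 50%, the log2 fold change was 0.44 (adjusted p = 1.77e-09, edgeR). With upper quartile scaling it was -0.11 (adjusted p = 0.0339, edgeR), so neither its direction nor its call held across scalings. Bnip3l, its close relative, had 0.03 and 0.30 (log2, without and with offsets). Bnip3 held 50.45 ± 1.73% of the summed message of Bnip3 and Bnip3l per kilobase in K68R and 50.9 ± 0.939% in WT (SD, n = 3; two-sided exact permutation p = 0.8).

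Ndrg1 and Ankrd37 are classical induced genes with less settled roles, and both were lower in K68R. Ndrg1 (chromosome 15, 66801167 to 66841490, minus strand, mm39, 16 exonic blocks), a stress-responsive protein that restrains growth and is best known for nerve myelination, was at 20.0, 19.2 and 19.9 CPM in K68R against 25.4, 26.9 and 25.5 CPM in WT. The genotypes did not overlap. Its level fell 1.31-fold (log2 fold change -0.39, standard error 0.0552, adjusted p = 1.88e-09), and 1.23-fold with offsets (adjusted p = 3.59e-06; edgeR). It was not called against the 1.5-fold bound (adjusted p = 1, edgeR).

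Ankrd37 (chromosome 8, 46449945 to 46452904, minus strand, mm39, 6 exonic blocks), an ankyrin-repeat protein of little known function, rested on few reads. It had 30, 46 and 33 counts in K68R and 72, 82 and 66 counts in WT, or 1.16, 1.47 and 1.07 CPM in K68R against 1.75, 2.62 and 1.97 CPM in WT. The values did not overlap, and the fall was 1.69-fold (log2 fold change -0.75, standard error 0.210, adjusted p = 8.95e-04, edgeR). With offsets the log2 fold change was -0.30 and the call was lost (adjusted p = 0.200, edgeR). The ratio of summed counts was 0.598, and counting error alone puts it between 0.471 and 0.755 (exact binomial, 95%). Ufsp2 on the opposite strand shares 6.59% of its exonic bases and fell 1.58-fold, or 1.09-fold with offsets.

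Per kilobase of exon the 10 genes spanned a wide range. In K68R the order was Adm at 108.5 ± 0.970, Hif1a at 49.6 ± 1.47, Egln1 at 20.6 ± 0.304, Bnip3 at 17.7 ± 1.31, Vegfa at 16.7 ± 0.214, Ndrg1 at 6.82 ± 0.157, Egln3 at 5.18 ± 0.0981, Car9 at 2.21 ± 0.146, Pdk1 at 2.02 ± 0.163 and Ankrd37 at 1.60 ± 0.274 CPM per kilobase (SD, n = 3). Bnip3 and Vegfa overlapped there, as did Car9 with Pdk1 and Pdk1 with Ankrd37, while all other neighbours were separate. In WT, Adm led at 69.2 ± 1.16 and Hif1a followed at 61.7 ± 0.403 CPM per kilobase, and Car9 was last at 0.218 ± 0.0753 (SD, n = 3). Only Ankrd37 and Egln3 overlapped as neighbours in WT. Egln1 had rank 3 in K68R and rank 6 in WT. Adm was above 96.6% of the genes tested in K68R and above 93.4% in WT, and Car9 was above 39.8% in K68R and 14.7% in WT.

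**Figure D4:**
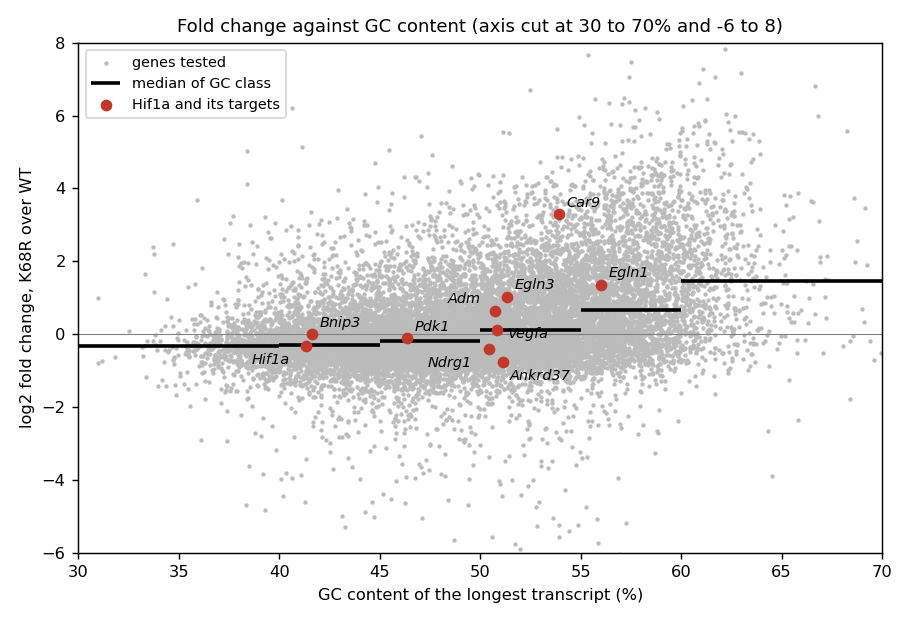
Log2 fold change of K68R over WT against the GC content of the longest transcript, for all genes tested that have a GC value (grey), with the median of each GC class (black bars) and the 10 genes (red). Hif1a lies on the median of its class, whereas Car9 at 3.30 lies well above its class median of 0.11. Egln3, in the same class as Car9, lies at 1.03, just above the upper quartile of 0.94.

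Promoter sequences were examined for the HIF motif, since Egln1, Egln3, Car9 and Adm rose with and without offsets. RefSeq promoter windows of build GRCm38.p6, from 250 bases before to 50 after a start, were available for 9 of the 10 genes, in 11 windows. Letters ACGTG and GCGTG were searched on both strands, so that CACGTG counts as 2 overlapping matches. At least 1 match lay in 9 of the 11 windows, and each of the 9 genes had a window with a match. For Vegfa, on the minus strand, the matches lay only in the downstream window, chr17:46025114-46025413. Its upstream window, chr17:46032328-46032627, held none. A match was held by 43.8% of all 32851 RefSeq windows, and by 59.2% of the 15069 windows of the genes tested. These are shares of windows, and no share of genes was taken to set beside the count of genes. Capitals below mark the matches in the windows of the 4 genes that rose most and of Bnip3, which had the most matches and whose call depended on the scaling. The windows are chr4:43506776-43507075 (plus strand) for Car9, chr8:124949205-124949504 (minus) for Egln1, chr12:54203825-54204124 (minus) for Egln3, chr7:110627407-110627706 (plus) for Adm and chr7:138909457-138909756 (minus) for Bnip3.
Car9: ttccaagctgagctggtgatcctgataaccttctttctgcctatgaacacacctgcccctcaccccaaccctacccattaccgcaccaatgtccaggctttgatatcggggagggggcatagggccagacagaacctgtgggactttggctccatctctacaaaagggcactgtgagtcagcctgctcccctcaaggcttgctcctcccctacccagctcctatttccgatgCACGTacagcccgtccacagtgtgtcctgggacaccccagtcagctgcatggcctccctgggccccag
Egln1: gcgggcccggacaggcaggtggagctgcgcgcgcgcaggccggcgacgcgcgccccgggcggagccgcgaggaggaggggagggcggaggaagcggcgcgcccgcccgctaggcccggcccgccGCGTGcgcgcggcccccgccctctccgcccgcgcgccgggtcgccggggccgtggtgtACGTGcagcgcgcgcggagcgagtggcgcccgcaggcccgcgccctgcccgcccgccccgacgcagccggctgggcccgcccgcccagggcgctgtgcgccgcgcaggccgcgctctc
Egln3: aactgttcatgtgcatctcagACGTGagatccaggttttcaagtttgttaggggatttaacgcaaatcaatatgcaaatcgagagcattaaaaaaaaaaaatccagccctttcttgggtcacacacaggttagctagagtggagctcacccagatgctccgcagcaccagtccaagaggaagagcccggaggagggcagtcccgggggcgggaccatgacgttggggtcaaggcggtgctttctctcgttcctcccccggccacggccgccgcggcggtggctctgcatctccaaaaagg
Adm: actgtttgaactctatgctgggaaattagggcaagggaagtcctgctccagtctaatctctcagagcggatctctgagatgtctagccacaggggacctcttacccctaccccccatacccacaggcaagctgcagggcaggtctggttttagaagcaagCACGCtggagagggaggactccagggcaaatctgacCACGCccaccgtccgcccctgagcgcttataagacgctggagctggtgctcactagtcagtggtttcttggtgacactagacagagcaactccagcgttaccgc
Bnip3: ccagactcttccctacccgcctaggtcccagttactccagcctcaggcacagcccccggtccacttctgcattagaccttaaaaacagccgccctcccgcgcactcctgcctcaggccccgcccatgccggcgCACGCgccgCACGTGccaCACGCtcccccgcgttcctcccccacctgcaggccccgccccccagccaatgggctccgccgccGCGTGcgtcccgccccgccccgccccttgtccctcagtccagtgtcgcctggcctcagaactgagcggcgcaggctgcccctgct

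The single Car9 match, ACGTG read on the opposite strand, began 18 bases before the start. Egln3 also had 1 match, 229 bases before the start. Egln1 and Adm had 2 each, Pdk1 had 2 in the upstream of its 2 windows, and Vegfa had 2 in the downstream of its 2 windows. Ankrd37 had 4, Hif1a 3 and Bnip3 5. In Hif1a the pair 135 and 134 bases before the start came from 1 CACGTG, as did the pair at 108 and 107 in Bnip3. In Ankrd37 the matches 155 and 152 bases before the start overlapped in 1 CACGCGTG. With 1 match, Car9 had log2 fold changes of 3.30 and 3.30 and Egln3 of 1.03 and 1.04, without and with offsets. With 2 matches, Egln1 had 1.36 and 0.42, and Adm 0.65 and 0.98. Pdk1, also with 2, had -0.11 and -0.15, and Vegfa 0.10 and -0.10. Hif1a with 3 had -0.31 and -0.04, and Ankrd37 with 4 had -0.75 and -0.30. Bnip3 with 5 had 0 to 2 decimals without offsets and 0.39 with them. Whether the number of matches goes with the change, over the genes with a window, was not tested. A match is a string of letters and not a binding site.

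The rest of the oxygen-sensing machinery was mostly called, in both directions, as were 81.4% of all genes tested (75.8% with offsets). Of 15 further subunits, regulators and cofactors of HIF, counted without Hif1a, Egln1 and Egln3, 14 were tested: 8 were higher, 5 lower and 1 not called. Their median log2 fold change was 0.29, beside -0.01 over all genes tested. With offsets 4 were higher and 8 lower, and the median was -0.11 beside -0.07. The coactivators Crebbp and Ep300, histone acetyltransferases that HIF recruits, rose most, at 45.7 ± 2.22 CPM in K68R, against 2.76 ± 0.124 CPM in WT for Crebbp, and 121 ± 2.18 CPM in K68R, against 12.6 ± 0.454 CPM in WT for Ep300 (SD, n = 3). These are 16.5-fold and 9.59-fold, and 6.78-fold and 4.90-fold with offsets (edgeR). Both are long transcripts, with 10847 and 8860 exonic bases. Cited2, which competes with HIF for those coactivators, rose 1.65-fold, and 1.36-fold with offsets.

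Of all genes tested, 40.5% were called lower without offsets. The parts of the ubiquitin ligase that destroys HIF alpha were all called lower without offsets, by small amounts. Vhl, its substrate receptor, was at 15.5 ± 0.124 CPM in K68R, against 20.0 ± 0.418 CPM in WT (SD, n = 3), a log2 fold change of -0.37, and -0.21 with offsets. Cul2, Rbx1, Elob and Eloc, its scaffold, RING and adaptor subunits, had log2 fold changes of -0.48, -0.61, -0.39 and -0.34. With offsets these shrank to -0.16, -0.15, -0.07 and 0.02, and Eloc was no longer called (edgeR). Hif1an, named after its values were seen, the asparaginyl hydroxylase that blocks coactivator binding, changed by 0.21 and by -0.50 with offsets, both called, so its direction is not settled.

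Other non-glycolytic HIF targets also went both ways, and their share called was near the 81.4% of all genes tested. Of 32 genes, 31 were tested, 10 were higher, 14 lower and 7 not called (median log2 fold change -0.09). With offsets the split was 13 higher and 11 lower with a median of 0.10. With upper quartile scaling it was 7 higher and 18 lower, beside 6147 higher and 7582 lower of all 16730 genes tested. The histone demethylase Kdm4b rose most, by 3.62 on the log2 scale and by 1.30 with offsets, followed by the clock repressor Bhlhe41 with 1.38 and 1.26. Plod2, a lysyl hydroxylase of collagen, changed by 0.73 and 0.63, and the MYC antagonist Mxi1 by 0.63 and 0.79. B430319G15Rik on the opposite strand shares 29.6% of the exonic bases of Plod2, and the counting used no strand. Gys1, glycogen synthase, had 0.75 but -0.13 with offsets, both called. Among the lower genes, the transferrin receptor Tfrc had -0.82 and -0.49, the mitochondrial protein Higd1a -0.81 and -0.55, and Ddit4, an inhibitor of mTOR, -0.54 and -0.63 (log2, first without and then with offsets, all edgeR calls). Fam162a and Wsb1 had -0.65 and -0.43, and 0.03 and -0.09 with offsets, where Fam162a was not called.

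**Figure D5:**
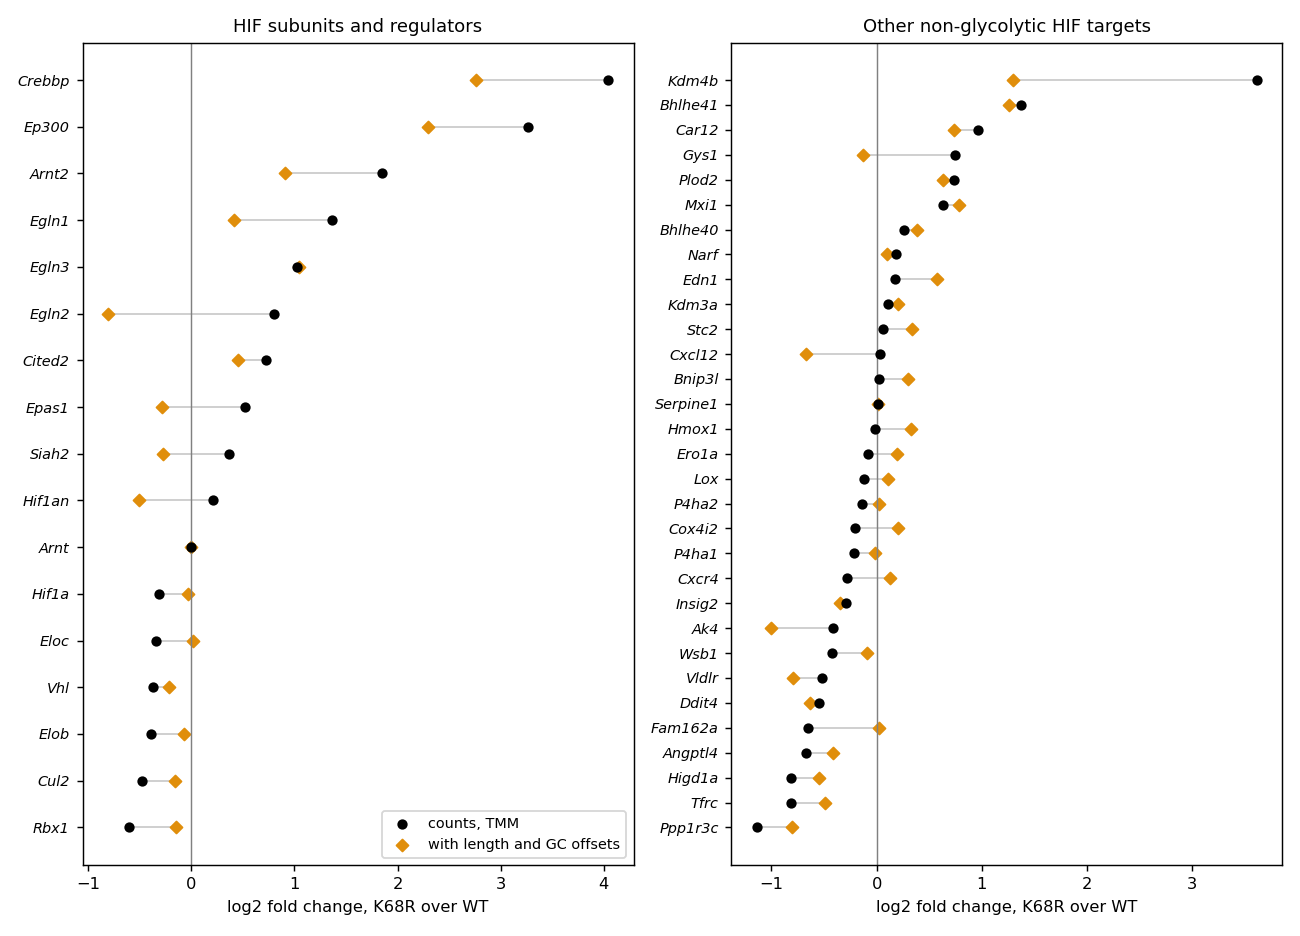
Log2 fold change of K68R over WT from TMM-scaled counts (black) and with length and GC offsets (orange diamonds) for the tested HIF subunits and regulators (left) and other non-glycolytic HIF targets (right). Crebbp and Ep300 are the highest of the left panel, and Egln2, Epas1, Siah2 and Hif1an on the left, like Gys1, Lox and Ero1a on the right, are among the genes that change sign between the fits.

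Glycolytic targets of HIF are given only for orientation. Their share called was also near that of all genes tested, 81.4%. Of 17 tested, 5 were higher, 8 lower and 4 not called (median log2 fold change -0.03), and with offsets 4 were higher and 10 lower. Ldha, lactate dehydrogenase A, was lower by -0.63 and -1.18 with offsets, and Pgk1 by -0.36 and -0.05 (log2). Eno1 had -0.25 and -0.45, Gapdh -0.31 and -0.00 (not called with offsets), and Tpi1 -0.25 and 0.12. Among the higher genes, Hk1 had 1.58 and -0.10, Pfkl 0.89 and -0.48, Hk2 0.45 and -0.33, Pfkfb3 0.87 and 0.36, and Aldoc 0.60 and 0.63 (log2, without and with offsets). Several of these genes have processed copies in the genome, so reads that map to more than 1 place were not counted and their levels are uncertain.

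Markers of cell types were read beside these results. Of all genes tested, 40.8% were called higher and 40.5% lower, and 33.5% and 42.4% with offsets. All 10 fibroblast markers were tested, and their summed level was 17796 to 17842 CPM in K68R and 8349 to 8509 CPM in WT, with 4 higher and 5 lower. With offsets 4 were higher and 6 lower, and Pdgfrb turned from 0.29 to -1.07 (log2, edgeR). Within that list Fn1 was at 7154 ± 65.9 CPM in K68R, against 387 ± 10.05 CPM in WT, Vim was at 4983 ± 29.6 CPM in K68R, against 4905 ± 41.8 CPM in WT, and Pdgfra fell to 65.3 ± 1.44 CPM in K68R, against 363 ± 3.50 CPM in WT (SD, n = 3). Myogenic markers were higher in 6 of 6 tested, summing to between 220.0 and 222 CPM in K68R and between 70.2 and 73.5 CPM in WT. Chondrocyte markers were higher in 4 of 4 tested of 6, at 162 to 168 CPM in K68R against 9.90 to 10.6 CPM in WT. With offsets 3 of these 4 were called higher, and Acan was not called. Adipocyte markers were lower in 5 of 5 tested of 6, at 10.8 to 11.1 CPM in K68R against 101 to 107 CPM in WT, with Plin1 and Lep at 0 counts in K68R. Epithelial markers were lower in 6 of 6, at 18.4 to 20.5 CPM in K68R against 46.0 to 47.6 CPM in WT. Macrophage markers, 1 higher and 2 lower of 6, summed to 124 to 132 CPM in K68R and 143 to 146 CPM in WT. With offsets 2 were higher and 1 lower, and all called ones changed sign. Csf1r had 0.37 and -0.33, Cd68 -0.17 and 0.32, and Lyz2 -0.28 and 0.20 (log2, without and with offsets, edgeR). Endothelial markers, 2 higher of 5 tested of 6, summed to 96.2 to 97.9 CPM in K68R and 24.98 to 27.4 CPM in WT, most of it Kdr. Erythroid markers summed to under 1 CPM in every library. With offsets the numbers of myogenic, adipocyte, epithelial and endothelial markers called higher and lower did not change. The part of these differences in the results for Hif1a and its targets was not tested.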

How the data were processed

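The 6 libraries were made from poly(A) RNA with a stranded NEB kit, from RNA with an integrity number above 4, per the labels' protocols. The deposited values are unnormalized counts, 1 per read pair and gene, made with featureCounts 2.0.6 without a strand option and without multi-mapped reads, per the file headers. The submitters' processing notes name HISAT2 2.2.1 and build mm39. Depth is given above. Intervals and floors of 3 counts cover counting error only, since no molecular identifiers were used.

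Genes passing edgeR's filterByExpr were tested with robust quasi-likelihood fits (edgeR 4.0.16, R 4.3.3, TMM scaling), with Benjamini-Hochberg adjustment over all genes tested and a threshold of 0.05. Scripts were tested on simulated data. Length and GC surfaces were fitted per library (mgcv 1.9.3) with GC from GENCODE M21 transcripts matched by symbol, for 93.7% of genes tested. Alternatives were DESeq2 1.42.0 and its size factors, limma-voom 3.58.1, a 1 CPM filter, upper quartile scaling, no filter, a 1.5-fold bound, short low-GC genes only, a replicate block and leaving out each library.

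The members and lists were chosen with earlier results of these data known, and receptors, relatives and overlapping genes after the values of the 10 genes were seen. From each pathway list the text names up to 5 called genes per direction with the smallest p, plus HIF subunits, Vhl and the Egln genes.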

Additional observations from a re-analysis of the deposited data

How the results depend on the processing

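The calls and directions of Egln1 (log2 fold change 0.42 to 1.39), Egln3 (0.91 to 1.07), Car9 (3.05 to 3.47) and Adm (0.53 to 0.98) were the same in all 15 alternatives in which they were tested. Against the 1.5-fold bound 6855 of all 16730 genes tested were called, or 41.0%, and 4 of the 10 genes. Of the HIF machinery (here with Hif1a, Egln1 and Egln3 counted in) 7 of 17 tested were called. Of the other targets it was 9 of 31, and of the glycolytic genes 5 of 17. Among only genes under 4000 bases and 50% GC, fewer genes were tested, and 2716 of 3978 were called. Those called included 1 of 1 of the 10 genes (Bnip3), and 2 of 3, 3 of 6 and 1 of 1 in the other lists. Vegfa turned to -0.0102 (adjusted p = 0.792, edgeR) with upper quartile scaling and to -0.10 with offsets, and lost its call without the filter (0.07, adjusted p = 0.115, edgeR). Bnip3 turned to -0.11 with upper quartile scaling (adjusted p = 0.0339, edgeR) and to -0.0348 without the filter, and ranged from -0.0395 to 0.067 when 1 library was left out. Pdk1 was called with upper quartile scaling, at -0.22 (adjusted p = 0.00313, edgeR). Hif1a and Ankrd37 were not called with offsets or against the bound, nor Vegfa and Ndrg1 against the bound. The cause was not tested. Leaving out 1 library called 13403 to 13637 genes in all, of 17135 to 17295 tested, and 7 to 8 of the 10 genes. In the lists it called 16 of 17 of the machinery, 22 to 24 of 31 other targets and 12 to 14 of 17 glycolytic genes. With the replicate number as a block 13567 genes and 8 of the 10 were called, and no call of the 10 genes changed. Deviations of same-numbered libraries correlated at -0.00947, 0.0135 and 0.013, and not every library correlated best with its own number. Depth limits Ankrd37 and, in WT, Car9.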

Other observations

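Relatives of Car9 and Ndrg1 were read after the values of the 10 genes had been seen. Of all genes tested, 40.8% were called higher and 40.5% lower. Of 7 other carbonic anhydrases, 6 were tested, 4 were higher and 2 lower in K68R, and with length and GC offsets 3 were higher, 1 lower and 2 not called. Car8, Car14 and the mitochondrial Car5b had log2 fold changes of 1.39, 1.47 and 1.24, and 1.46, 1.63 and 1.62 with offsets. Car14 rested on 18, 24 and 18 counts in the K68R libraries and 11, 6 and 9 in the WT libraries. Car11 had 1.84 and Car2 -0.70, and neither was called with offsets (0.28 and -0.39, edgeR). The cytosolic Car13 fell by 0.63 on the log2 scale and by 0.25 with offsets (edgeR). Car4 had 0 counts.

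In the Ndrg1 family, Ndrg3 was lower like Ndrg1, while the other two were higher. Ndrg2 was at 12.8 ± 0.772 CPM in K68R, against 5.77 ± 0.0473 CPM in WT, and Ndrg4 at 97.7 ± 1.59 CPM in K68R, against 44.6 ± 1.11 CPM in WT (SD, n = 3). Their log2 fold changes were 1.14 and 1.13, and 0.91 and 0.70 with offsets. Ndrg3 was at 36.4 ± 1.36 CPM in K68R, against 48.2 ± 2.42 CPM in WT, with -0.41 and -0.13 (edgeR). Per kilobase of exon Ndrg1 made up 13.45 ± 0.0777% of the 4 messages in K68R and 23.3 ± 0.692% in WT (SD, n = 3; two-sided exact permutation p = 0.1, the smallest possible), without offsets.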
